A study of Mus musculus with 23 samples.

Results

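The expression arrays carried 13 probes for 10 genes of the hypothalamic feeding system, out of 39429 probes apart from controls. The members were found by gene name in the scanner files: Pomc, Cartpt, Agrp, Npy, Pmch, Hcrt, Trh, Gal, Lepr and Mc4r. Lepr had 4 probes and the other 9 genes had 1 probe each. Of these probes, 11, with at least 1 for every gene, were well above the local background on all 12 arrays. Lepr probe 3 reached this limit on 10 arrays and Lepr probe 4 on 2.

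RNA was taken from the whole brain, cerebrum with cerebellum, of adult male C57BL/6J progenies at 19 weeks of age. Embryos were made by in vitro fertilization and carried by ICR recipient mothers, which ate their diet from before embryo transfer until the progenies were delivered by cesarean section. The CD group had mothers on a control diet (AIN93G) with 20% casein and 0.02% folic acid, the PR group mothers on a protein-restricted diet with 5% casein and 0.02% folic acid, and the FA group mothers on the protein-restricted diet with 0.1% folic acid. All progenies were nursed by ICR foster mothers, ate CD after weaning and had gone through behavioral tests. There were 4 mice in each group, with 1 Agilent array per mouse.

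Food intake is set in part by a small circuit in the base of the hypothalamus. Neurons of the arcuate nucleus that make Pomc and Cartpt lower food intake, and their neighbors that make Agrp and Npy raise it. Both kinds sense leptin from fat through the receptor Lepr, and they act in opposite ways on Mc4r, the melanocortin 4 receptor. The lateral hypothalamus holds the neurons for Pmch (melanin-concentrating hormone) and Hcrt (orexin), and Trh and Gal are made in several hypothalamic nuclei and elsewhere in the brain.

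The array measures each gene at a stretch of 60 bases. The probe sequences are shown for 3 peptide precursors whose probes lie in the coding sequence, because they show which part of the precursor was read. Peptide precursors are cut by convertases after pairs of basic residues, although not at every pair. Capitals mark the codon pairs for lysine or arginine in the reading frame of the precursor. The Pomc probe lies at chr12:3960413-3960472 (mm9, plus strand), the Npy probe spans an intron at chr6:49773743-49777505 (plus strand), and the Cartpt probe spans an intron at chr13:100668967-100669956 (minus strand).
Pomc: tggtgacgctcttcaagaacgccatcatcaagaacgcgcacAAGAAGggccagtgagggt
Npy: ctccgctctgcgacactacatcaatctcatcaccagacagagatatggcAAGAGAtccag
Cartpt: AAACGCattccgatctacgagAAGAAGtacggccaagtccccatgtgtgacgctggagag

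The Pomc probe covers the end of the precursor, where beta-endorphin lies. The Npy probe ends at the pair that follows neuropeptide Y, and the Cartpt probe starts at the pair before the mature peptide.

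Lepr is spliced into several receptor forms. The first of the Lepr probes below lies at chr4:101452666-101452725 and the next at chr4:101464615-101464674 (mm9, plus strand). They are shown because the leptin receptor results rest on them.
Lepr probe 1: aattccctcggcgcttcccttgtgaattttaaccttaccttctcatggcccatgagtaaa
Lepr probe 2: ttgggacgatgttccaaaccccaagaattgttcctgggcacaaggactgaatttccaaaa

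The values below are log2 of the deposited normalized intensity, so a step of 1 is a doubling. Levels were compared between mice at the same probe and never between probes. A probe was called when the adjusted p of limma, with Benjamini-Hochberg adjustment over all 39429 probes of a comparison, was under 0.05. Each mouse gave 1 array, so the p-values measure the spread between these mice. The diets were given to the mothers, and the labels do not give the mother of each mouse. Littermates could thus not be told from mice of different litters. In whole brain, fewer cells of a type and less RNA per cell cannot be told apart.

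On the CD arrays 27068 to 28458 of 43020 spots were well above background, on the PR arrays 31266 to 33478 and on the FA arrays 30408 to 31672. The 4 arrays of a diet shared a slide, so slide and diet cannot be told apart. Over all probes, 30% were called between PR and CD, 34.4% between FA and CD, and 0.614% between FA and PR, and the members' counts are read against these shares. Of the calls between PR and CD 55.3% were lower in PR, and this share was 43.9% with normexp background correction and 44.5% with dim probes removed. Of those between FA and PR 62.8% were lower in FA, against 83.1% with 75th percentile scaling and 25% by the Tukey test. FA replicate 2 stood apart from the other FA mice in several of the members and in some hypothalamus markers. Over 23753 probes on all arrays the SD of its log2 difference from the other 3 FA mice was 0.201, against 0.164 to 0.189 for the other FA arrays and 0.164 to 0.234 over all 12. It was the lowest of its group by over 0.5 at 0.404% of these probes, against 0.126% to 0.198% for the other FA arrays. This share was 0.0463% to 0.661% over all 12 arrays, highest for CD replicate 1, so over all probes FA replicate 2 lay within the range of the arrays. Member results that rest on it are given with and without it.

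Of the 13 probes, 2 fell in PR relative to CD and none rose. Pmch and Trh were the genes that fell. Pomc, Agrp and Gal were also lower in every PR mouse than in any CD mouse but did not pass the test in the fit of all mice. Pomc and Agrp passed in 2 of 21 refits and Gal in 3, among them the fit without FA replicate 2. The groups did not overlap for 5 of the 13 probes, against 33.2% of all probes. Without FA replicate 2 the same 5 probes passed, all lower in PR, when 29.5% of all probes passed and 16.3% were called lower. Among the 11 probes well above background on all arrays the count was 2, against 30.8% of all such probes. With all mice, the members called were thus 15.4%, below the share of all probes, and the members whose groups did not overlap were 38.5%, a little above it.

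**Figure D1:**
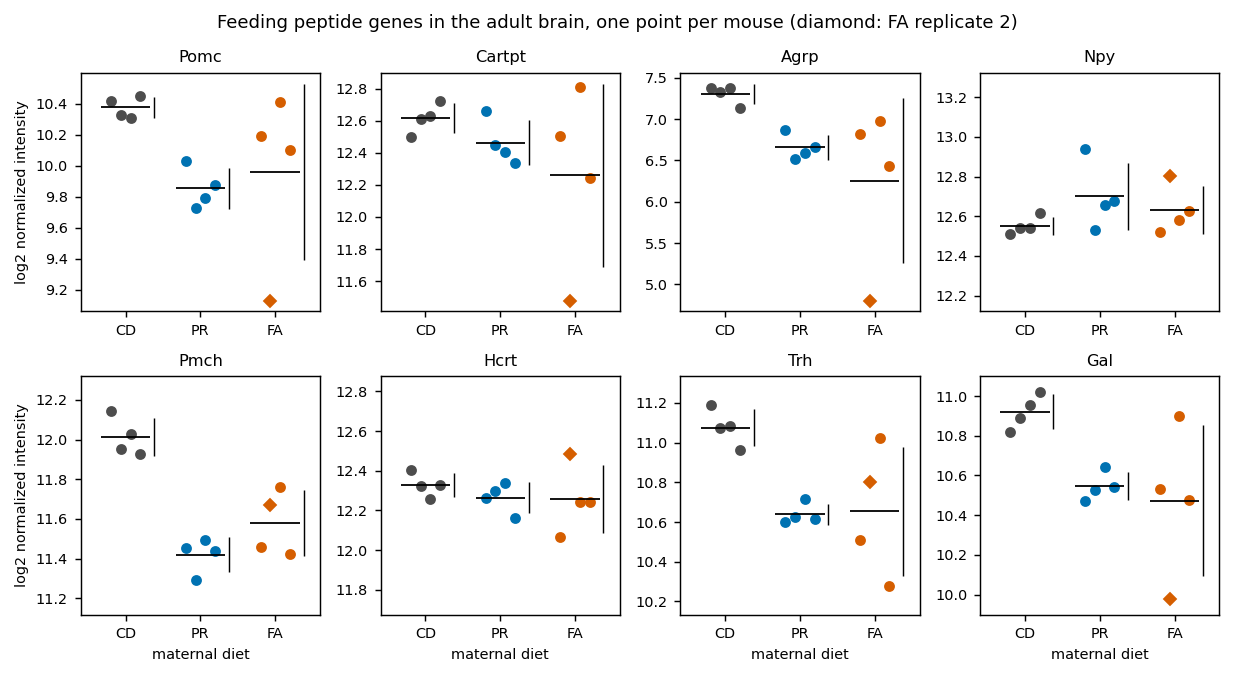
Log2 normalized intensity (y axis) of 8 feeding peptide genes by maternal diet (x axis), with 1 point per mouse, 4 mice per diet. The horizontal line is the mean and the vertical line 1 SD to either side. The diamond is FA replicate 2, which lies at 9.13 for Pomc, 4.80 for Agrp and 11.48 for Cartpt, below all other mice. All PR mice lie below all CD mice for Pomc, Agrp, Pmch, Trh and Gal.

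Pomc is the precursor of melanocortins, which lower food intake, and of beta-endorphin. Its log2 level was 10.41, 10.33, 10.31 and 10.45 in the CD mice, 10.03, 9.73, 9.79 and 9.87 in the PR mice and 10.19, 9.13, 10.41 and 10.10 in the FA mice. The PR mice were all below the CD mice, while FA replicate 3 was as high as the CD mice and FA replicate 2 was the lowest of all. The log2 difference between PR and CD was -0.52 (SE 0.22, adjusted p = 0.107). In the fit without FA replicate 2 the same difference had an SE of 0.084 and an adjusted p of 0.00189. With FA against CD it was -0.42 (SE 0.22, adjusted p = 0.18) for all mice and -0.14 (SE 0.091, adjusted p = 0.272) without FA replicate 2.

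The Cartpt product lowers food intake and is made by many neurons outside the hypothalamus as well. The CD mice had 12.50, 12.61, 12.63 and 12.72, the PR mice 12.66, 12.45, 12.40 and 12.34, and the FA mice 12.50, 11.48, 12.81 and 12.24. All 3 groups overlapped, and 1 FA mouse was lower than the rest by a wide gap. The difference was -0.15 between PR and CD (SE 0.23, adjusted p = 0.644) and -0.36 between FA and CD (SE 0.23, adjusted p = 0.256). The latter was -0.10 without FA replicate 2 (SE 0.13, adjusted p = 0.603).

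Agrp encodes agouti-related protein, which blocks melanocortin receptors and raises food intake. It measured 7.38, 7.33, 7.38 and 7.13 in CD, 6.87, 6.52, 6.59 and 6.66 in PR and 6.82, 4.80, 6.98 and 6.43 in FA. Every PR and every FA mouse was below every CD mouse. PR was lower than CD by -0.65 (SE 0.39, adjusted p = 0.233), and the same difference had an SE of 0.12 and an adjusted p of 0.00427 without FA replicate 2. FA was lower than CD by -1.05 (SE 0.39, adjusted p = 0.0579). That difference was -0.57 without FA replicate 2 and passed the test (SE 0.13, adjusted p = 0.0107).

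Npy, made by the same arcuate neurons as Agrp and by many interneurons of the cortex, did not follow it. Its level was 12.51, 12.54, 12.54 and 12.62 in CD, 12.94, 12.53, 12.66 and 12.67 in PR and 12.52, 12.80, 12.58 and 12.62 in FA. The groups overlapped, and PR replicate 1 and FA replicate 2 were the highest of their groups. The difference from CD was 0.15 in PR (SE 0.087, adjusted p = 0.225, 95% interval -0.04 to 0.34) and 0.08 in FA (SE 0.087, adjusted p = 0.507, 95% interval -0.11 to 0.27).

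Pmch, the precursor of melanin-concentrating hormone, which raises food intake, had the lowest adjusted p of the members in both comparisons with CD. The CD mice had 12.14, 11.95, 12.03 and 11.93, the PR mice 11.45, 11.29, 11.50 and 11.44, and the FA mice 11.46, 11.67, 11.76 and 11.42. Both groups on low protein lay below all CD mice, with FA replicate 2 in the middle of its group. Pmch fell by 0.59 on the log2 scale in PR (SE 0.085, adjusted p = 0.000633), which is 0.664 of the CD level. It fell by 0.43 in FA (SE 0.085, adjusted p = 0.00306), to 0.74 of the CD level. Both calls held in all 21 refits with another normalization, filter, model or set of mice, with adjusted p from 4e-04 to 0.00291 in PR and from 0.00135 to 0.0116 in FA.

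Hcrt, the orexin precursor made by neighbors of the Pmch neurons, showed no difference that passed. Its level was 12.40, 12.32, 12.26 and 12.33 in CD, 12.26, 12.30, 12.34 and 12.16 in PR and 12.07, 12.48, 12.24 and 12.24 in FA. All groups overlapped. The difference from CD was -0.06 in PR (SE 0.08, adjusted p = 0.579, 95% interval -0.24 to 0.11) and -0.07 in FA (SE 0.08, adjusted p = 0.526, 95% interval -0.25 to 0.11), so that falls as large as that of Pmch lay outside the interval.

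Trh, the precursor of thyrotropin-releasing hormone, measured 11.19, 11.07, 11.08 and 10.96 in CD, 10.60, 10.63, 10.72 and 10.62 in PR and 10.51, 10.80, 11.02 and 10.28 in FA. The PR mice were close together and below all CD mice, while the FA mice were spread and FA replicate 3 reached the CD range. Trh fell by 0.44 in PR (SE 0.13, adjusted p = 0.0317) and by 0.42 in FA (SE 0.13, adjusted p = 0.032). Each of these calls held in 14 of 21 refits, with adjusted p up to 0.107 in both. The PR call was lost without CD replicate 1, 2 or 3 or PR replicate 1, 2 or 4 and in the Tukey test, with differences of -0.44 to -0.40. The FA call was lost without CD replicate 1, 2 or 3 or FA replicate 1 or 4, in the Tukey test and in the fit of the 2 groups, and the difference was -0.30 without FA replicate 4.

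Gal, the galanin precursor, measured 10.82, 10.89, 10.96 and 11.02 in CD, 10.47, 10.53, 10.64 and 10.54 in PR and 10.53, 9.98, 10.90 and 10.48 in FA. All PR mice were below all CD mice, and 3 of the 4 FA mice were. The PR difference was -0.38 (SE 0.15, adjusted p = 0.0901) with all mice and had an SE of 0.093 and an adjusted p of 0.0144 without FA replicate 2. In FA, Gal fell by 0.45 (SE 0.15, adjusted p = 0.0438). The FA difference was -0.28 without FA replicate 2 and was no longer called (SE 0.10, adjusted p = 0.056). The FA call held in 7 of 21 refits and was lost without any 1 array other than FA replicate 3, with adjusted p up to 0.142.

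The sequences just before the transcription start are shown for Pomc, Pmch and Trh, the peptide genes that passed the test in PR, with or without FA replicate 2, in which RefSeq lists a promoter with the TATAA motif. Capitals mark TATAA, which was searched on both strands. They lie at chr12:3954695-3954944 (plus strand), chr10:88090822-88091071 (plus strand) and chr6:92244651-92244900 (minus strand) of GRCm38.p6, and each ends at the base before the start.
Pomc: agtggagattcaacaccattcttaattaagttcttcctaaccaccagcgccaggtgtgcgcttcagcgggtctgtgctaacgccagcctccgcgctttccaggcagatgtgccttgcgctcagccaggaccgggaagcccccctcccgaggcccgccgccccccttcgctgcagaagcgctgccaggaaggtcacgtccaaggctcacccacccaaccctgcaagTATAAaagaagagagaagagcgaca
Pmch: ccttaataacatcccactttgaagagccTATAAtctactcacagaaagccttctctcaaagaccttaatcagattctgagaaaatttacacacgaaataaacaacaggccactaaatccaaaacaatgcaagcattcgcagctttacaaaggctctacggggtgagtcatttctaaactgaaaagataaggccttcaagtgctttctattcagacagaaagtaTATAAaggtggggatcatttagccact
Trh: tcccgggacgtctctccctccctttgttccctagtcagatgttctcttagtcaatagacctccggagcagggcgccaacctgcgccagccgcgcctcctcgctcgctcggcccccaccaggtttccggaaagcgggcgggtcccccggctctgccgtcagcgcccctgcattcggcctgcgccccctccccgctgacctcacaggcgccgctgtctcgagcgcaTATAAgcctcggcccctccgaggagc

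RefSeq promoters were matched for 8 of the 10 member genes, and 4 of these 8, Pomc, Pmch, Trh and Hcrt, held TATAA within the 250 bases before the start, against 22.8% of 32851 promoters. The first base of the match nearest the start lay 25 bases before it in Pomc, 26 in Trh and 27 in Pmch. The cyclic AMP response element TGACGTCA was found in the Cartpt promoter alone, 112 bases before the start, against 1.55% of promoters. The STAT motif TTCNNNGAA was found in the Pmch promoter alone, 177 bases before the start, against 7.02%. Hcrt, which did not change detectably, has TATAA, and Gal, which was lower in every PR mouse, has none of the 3 motifs in this window.

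Among the receptors, Lepr fell in FA relative to CD at probes 1 and 2. With Pmch, Trh and Gal this made 5 of 13 probes, of 4 genes, that fell in FA, against 34.4% of all probes called in either direction and 18% called lower. Among the 11 probes on all arrays the count was also 5, against 37% of all such probes. Leaving out FA replicate 2 gave 5 again, with Agrp in place of Gal, against 32% of all probes called in either direction and 16.8% called lower. The groups FA and CD did not overlap for Agrp, Pmch and Lepr probe 2, which is 3 of the 13 against 36.9% of all probes. With FA replicate 2 left out this became 5 of 13, with Hcrt and Lepr probe 1 added, against 42.8% of all probes.

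Lepr probe 1 measured 10.07, 9.44, 10.10 and 10.33 in CD, 10.22, 10, 10.07 and 10.01 in PR and 9.40, 9.51, 9.14 and 9.40 in FA. All FA mice were below all PR mice, and CD replicate 2 was the only CD mouse in the FA range. Lepr probe 1 fell by 0.62 in FA relative to CD (SE 0.16, adjusted p = 0.0143), to 0.65 of the CD level, and the call held in 20 of 21 refits. The difference between FA and PR was -0.71 (SE 0.16, adjusted p = 0.0832, 95% interval -1.08 to -0.35). It did not pass in the fit of all mice. It passed in 3 of 21 refits, those with dim probes removed, with the 2 groups alone and without CD replicate 2, with adjusted p from 0.0287 to 0.271. PR did not differ detectably from CD at this probe, by 0.09 (SE 0.16, adjusted p = 0.708).

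Lepr probe 2, in another part of the gene, gave 6.03, 5.85, 5.87 and 5.71 in CD, 5.50, 5.84, 5.48 and 5.58 in PR and 5.39, 5.09, 5.70 and 5.29 in FA. The FA mice were all below the CD mice, but overlapped with the PR mice. It fell by 0.50 in FA (SE 0.13, adjusted p = 0.0127) and the call held in all 21 refits. PR differed from CD by -0.27 here (SE 0.13, adjusted p = 0.145), against 0.09 at probe 1. Normexp background correction brought the FA difference of probe 2 down to -0.17, still called.

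Lepr probe 3, annotated to transcript variant 3, passed the background limit in 2 of the CD mice and in every PR and FA mouse. It ranged from 4.89 to 5.84 in CD, from 4.98 to 5.64 in PR and from 4.65 to 5.13 in FA, and differed by -0.45 between FA and CD (SE 0.22, adjusted p = 0.145). It was called in 1 of 21 refits, without CD replicate 2, at -0.63. Lepr probe 4, annotated to transcript variant 1, was well above background on PR replicate 4 (6.35) and FA replicate 1 (4.13) and on no other array, so no difference is given for it. The fall of Lepr in FA thus rests on 2 of its 4 probes.

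Mc4r, through which melanocortins lower food intake, measured 7.88, 7.99, 7.93 and 7.85 in CD, 7.60, 7.89, 8.12 and 8.04 in PR and 7.92, 7.72, 7.92 and 8.04 in FA. The groups overlapped throughout. The difference from CD was 0.002 in PR (SE 0.11, adjusted p = 0.99, 95% interval -0.23 to 0.24) and -0.01 in FA (SE 0.11, adjusted p = 0.953, 95% interval -0.25 to 0.23).

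**Figure D2:**
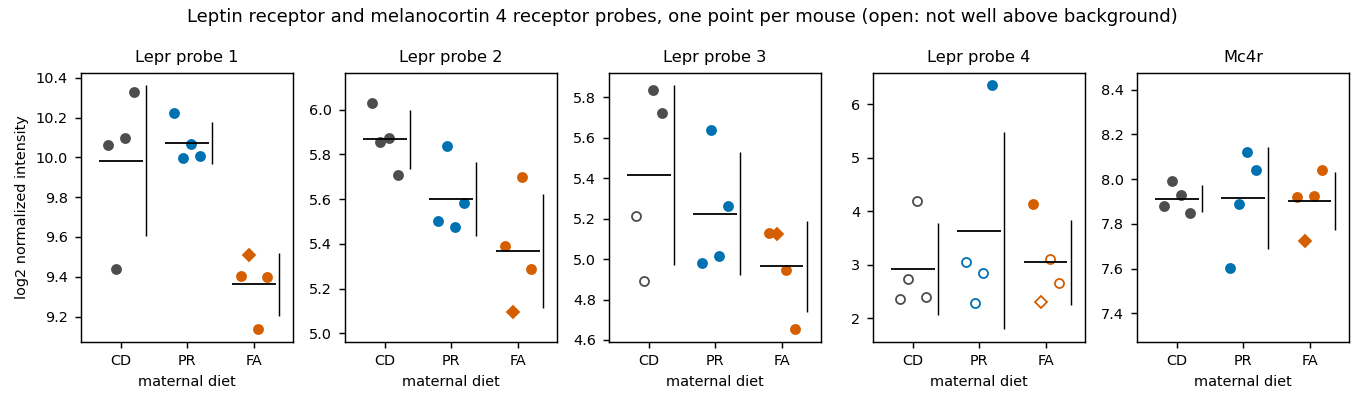
Log2 normalized intensity (y axis) of the 4 Lepr probes and of Mc4r by maternal diet (x axis), with 1 point per mouse, 4 mice per diet; horizontal line, mean; vertical line, 1 SD to either side; open symbols, not well above background; diamond, FA replicate 2. At Lepr probe 1 all FA mice lie between 9.14 and 9.51, below all PR mice, while Mc4r overlaps in all 3 groups.

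No member probe was called between FA and PR by limma, against 0.614% of all probes and 0.775% of those on all arrays, and 1, Lepr probe 1, had an unadjusted p under 0.05. The Tukey test gave 0 as well. The count was also 0 without FA replicate 2, when 0.0507% of all probes were called higher and 0.0735% lower. In the fit of the 2 groups alone 0.0786% of all probes were called higher and 0.178% lower, and Lepr probe 1 was among the lower ones (adjusted p = 0.0428). PR and FA were each compared with the same CD mice, so their differences from CD are not independent of each other. The intervals of the difference between FA and PR were -0.03 to 0.35 for Pmch, -0.28 to 0.31 for Trh and -0.41 to 0.27 for Gal. Pomc differed between FA and PR by 0.10 (SE 0.22, adjusted p = 0.887) with all mice and by 0.38 (SE 0.091, adjusted p = 0.136) without FA replicate 2.

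**Figure D3:**
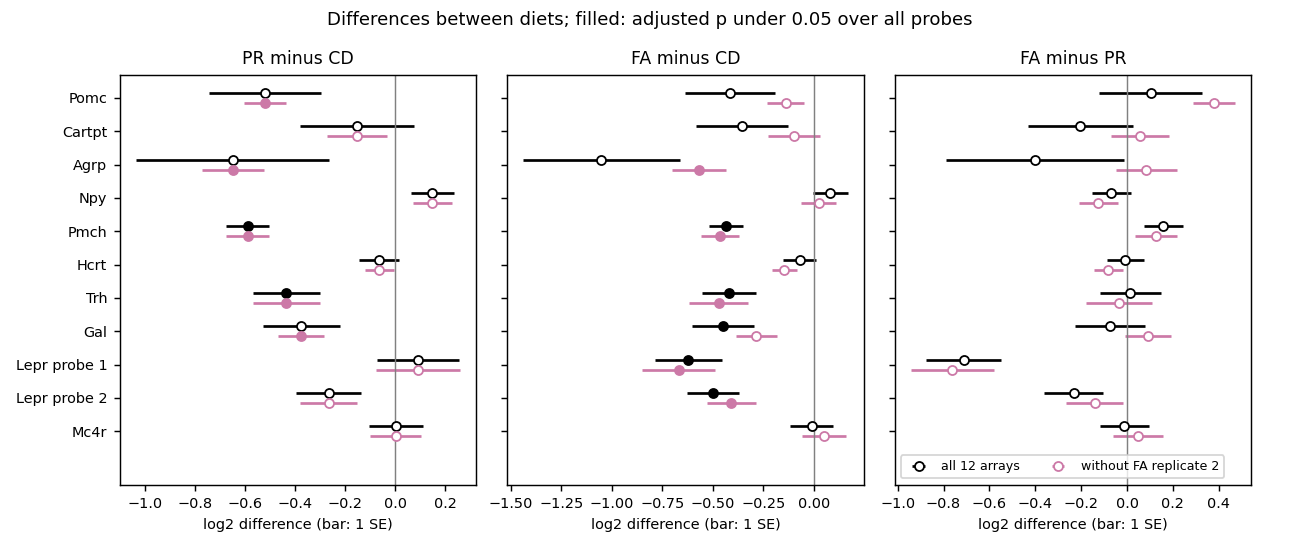
Log2 difference between diets (x axis) for the 11 member probes well above background on all arrays (y axis), in 3 comparisons with their own scales. Black points are from the fit of all 12 arrays, pink points from the fit without FA replicate 2, bars are 1 SE to either side, and filled points had an adjusted p under 0.05 over all probes. The PR difference of Pomc is -0.52 in both fits and its SE is 0.22 with the array and 0.084 without it.

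FA replicate 2 was low in only some of the members. Relative to the mean of the other 3 FA mice it was at -1.94 for Agrp, -1.10 for Pomc, -1.04 for Cartpt and -0.66 for Gal, and below all of them also for Lepr probe 2 (-0.36) and Mc4r (-0.24). It was above all of them for Hcrt (0.30), Npy (0.23) and Lepr probe 1 (0.20). For Pmch and Trh it lay among them. The hormones of the large hypothalamic neurons were also low: Oxt (oxytocin) was 11.68 in this mouse and 13.67, 13.86 and 13.16 in the other FA mice, and Avp (vasopressin) was 10.13 against 10.75, 11.29 and 10.83. Tph2, the enzyme of serotonin synthesis in the raphe nuclei of the brainstem, was 4.50 against 8.05, 8.01 and 7.14, and the serotonin transporter Slc6a4 was 5.16 against 8.14, 8.05 and 7.47. The other 3 brainstem monoamine markers were not low: Dbh was 9.71 and Slc6a2 7.59, each the highest of the FA mice, and Th was 12.36, among them. The part of the tissue sampled in this mouse was not tested.

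The hypothalamus markers were 24 probes of 22 genes, 15 of the probes on all arrays. In PR 7 of them fell and none rose, against 30% of all probes called in either direction and 16.6% called lower. Their median difference in PR was -0.28, against -0.02 for all probes. The 7 were Hdc, Kiss1 at 1 of its 2 probes, Magel2 and Nkx2-1, on all arrays, and Otp, Rax and Sim1, which were not on all arrays, Sim1 on none. In FA 4 fell and none rose, against 34.4% of all probes called in either direction and 18% called lower. Of the 4, Nr5a1 alone was on all arrays. With FA replicate 2 left out, 10 fell in PR and none rose, when 16.3% of all probes were called lower. In FA 3 then fell and 3 rose, when 16.8% of all probes were called lower and 15.2% higher.

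Oxt, Avp and Ghrh, which lead the hypothalamus list, were not called between PR and CD with all mice, though all PR mice were below all CD mice for each. Their adjusted p below come from the fit that held FA replicate 2, and their values without it are not given here. Oxt was 13.66 to 14.03 in CD and 13.12 to 13.45 in PR (adjusted p = 0.34), Avp 11.17 to 11.43 and 10.79 to 11.09 (adjusted p = 0.204), and Ghrh, the growth hormone releasing hormone, 7.92 to 8.21 and 7.47 to 7.72 (adjusted p = 0.0603). Other markers were close to CD or higher in PR without being called, among them Ngb at both probes (0.06 and 0.05) and Nkx2-4 (-0.01), and Bsx (0.15) and Gpr50 (0.85), which were well above background on 0 and 1 arrays. The summed intensity of the 24 probes was 19191 to 23238 in CD, 13990 to 16678 in PR, 14501 to 21530 in 3 of the FA mice and 7239 in FA replicate 2, and Oxt alone made up 67.4% to 71.8% of it in CD. The other 23 probes summed to 6071 to 6562 in CD, 5093 to 5464 in PR, 5350 to 6682 in 3 of the FA mice and 3964 in FA replicate 2. The part of these markers in the lower peptide levels of PR was not tested.

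**Figure D4:**
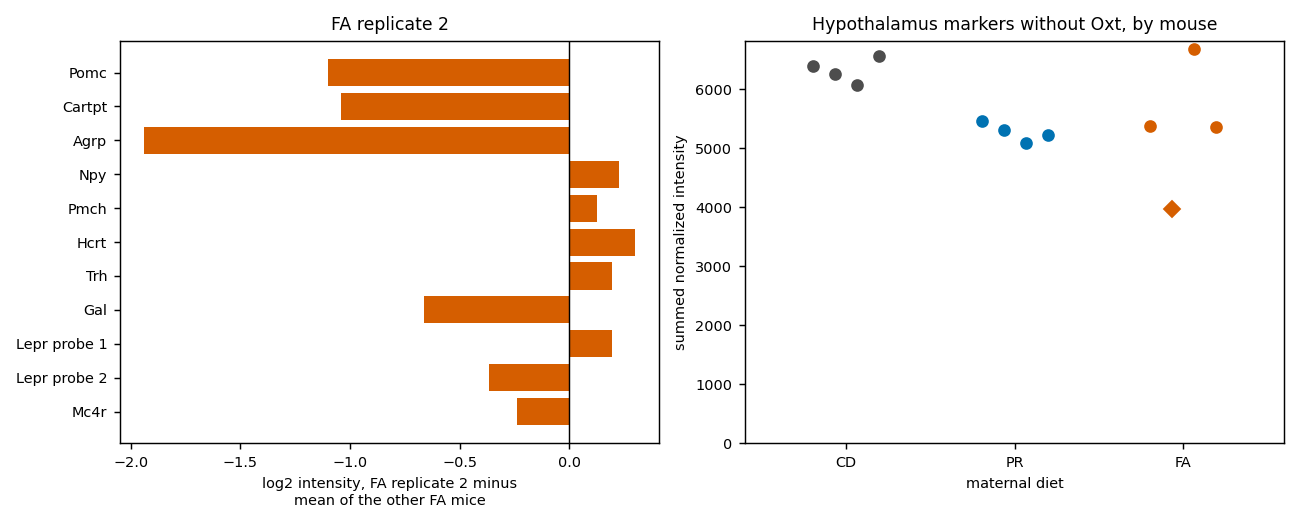
Left, log2 intensity of FA replicate 2 minus the mean of the other 3 FA mice (x axis) for 11 member probes (y axis). Right, summed normalized intensity (y axis) of the 23 hypothalamus marker probes other than Oxt by maternal diet (x axis), 1 point per mouse, with FA replicate 2 as a diamond. The difference is -1.94 for Agrp and 0.30 for Hcrt, and the summed intensity is 3964 in FA replicate 2 and 6071 to 6562 in the CD mice.

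Pomc is also made in the anterior pituitary. The pituitary hormones Gh (growth hormone) and Prl (prolactin) were 7.73 to 8.37 and 7.84 to 7.98 in CD and were not well above background in any PR mouse, at least 19.77-fold lower for Gh (adjusted p = 0.000549) and at least 18.72-fold lower for Prl (adjusted p = 0.00562). Of the FA mice, replicate 4 alone had both above background, at 6.16 and 7.35. Cga, the shared subunit of pituitary glycoprotein hormones, was 7.07 to 7.52 in CD, 5.80 to 7.66 in PR and 2.70 to 6.97 in FA. Pitx1 fell in FA (-1.02), and Ghrhr, on 2 FA arrays and no CD array, rose there (0.75). Tbx19 was higher by 1.21 in PR and 1.13 in FA without being called, well above background on no CD, 2 PR and 1 FA arrays. Tshb, also not called, differed by -0.535 and -0.75. Lhb and Pax7, on all arrays, were close to CD (-0.07 and 0.02 in PR, 0.13 and 0.03 in FA). Over the whole pituitary list of 14 probes, 2 fell in PR and none rose, against 30% of all probes called in either direction and 16.6% called lower. In FA 3 fell and 1 rose, against 34.4%, and 3 probes of the list were on all arrays. Its summed intensity was 16469 to 21993 in CD, 13219 to 24541 in PR and 15769 to 17864 in FA, of which 1 of the 2 Pou1f1 probes made up 94.5% to 98.3%, while the other was above background on no array. The other 13 probes summed to 893 to 1018 in CD, 348 to 530 in PR, 382 to 666 in 3 of the FA mice and 275 in FA replicate 2. Striatum markers went the other way: 5 of 9 probes, of 4 genes, rose in PR and none fell, and 5, of 4 genes, rose and 1 fell in FA. The probe that fell was of Rgs9 and was well above background on no CD array, while the other Rgs9 probes rose. Drd1, Drd2 and Adora2a were not called. Among all probes 13.4% were called higher in PR and 16.4% in FA. The share of these tissues in the brain samples was not tested as a part of the members' differences.

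Within groups, some pairs of members had high correlations, but none passed the adjustment with all mice. After group means were removed, Pomc and Agrp correlated over the 12 mice with a Pearson r of 0.97 (exact permutation p = 0.00658, adjusted p = 0.113) and a Spearman rho of 0.83 (exact permutation p = 0.0314, adjusted p = 0.301). Without the 2 mice farthest from the median of Pomc, FA replicates 2 and 3, r was 0.76. Pmch and Trh had an r of 0.87 (exact permutation p = 0.00289, adjusted p = 0.113) and a rho of 0.83 (exact permutation p = 0.0213, adjusted p = 0.301), and r was 0.82 without the 2 farthest mice, FA replicates 3 and 4. None of the 45 pairs passed the adjustment by either measure, with 7 pairs at an unadjusted p under 0.05 by Pearson and 5 by Spearman. These are two-sided tests that permute mice within a diet, and with 4 mice a diet or slide alone is too few for a value.

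The means of the hypothalamus, pituitary and choroid plexus markers, over their probes on all arrays, were related to the members in the same way. The pituitary mean held 3 probes, of Lhb, Pax7 and Pou1f1, and not Gh, Prl or Cga. Its relations thus cannot show a link to these hormones. None of 30 relations passed, with 5 at an unadjusted p under 0.05 by Pearson and 3 by Spearman. The lowest p was that of Hcrt with the pituitary mean, with an r of -0.66 (exact permutation p = 0.00666, adjusted p = 0.2). Next was Agrp with the choroid plexus mean, with an r of 0.68 (exact permutation p = 0.0178, adjusted p = 0.222). Cartpt had an r of 0.93 with the hypothalamus mean (exact permutation p = 0.0222, adjusted p = 0.222) and a rho of 0.64 (exact permutation p = 0.0565, adjusted p = 0.424). It fell to 0.39 without FA replicates 2 and 3, so the relation rests on these mice. For Pomc, Agrp and Gal the r with the hypothalamus mean was 0.90, 0.90 and 0.91 (exact permutation p = 0.055, 0.0754 and 0.0422). It was 0.16, 0.20 and 0.08 without the same 2 mice.

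The probes most like each member over the 12 mice, by Pearson r of values with group means removed among 21650 other named probes on all arrays (21649 for Lepr), are given as a description. Pomc was most like Katna1 (0.98), Agrp (0.97) and Tbkbp1 (0.96), and Agrp was most like Pomc, Tph2 (0.97) and Katna1 (0.97). Cartpt was most like Dnali1 (0.96), Oxt (0.96) and Dlk1 (0.96). Without FA replicate 2 the r of Pomc with Agrp was 0.70, of Agrp with Tph2 0.61 and of Cartpt with Oxt 0.84. For Pmch the nearest was A530047J11Rik (0.97), for Gal 1700045I19Rik (0.98), for Hcrt Ankrd34c (0.95), for Mc4r Adipor2 (0.93), for Lepr Rps6kb2 (0.92), for Trh LOC100046471 (0.91) and for Npy 1700012B15Rik (0.90).

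The other genes of the feeding system were taken from 4 lists with 132 probes for 99 of 100 genes. In PR 15 of these probes rose and 15 fell relative to CD, against 13.4% of all probes called higher and 16.6% lower. In FA 16 rose and 18 fell, against 16.4% and 18%. Between FA and PR 1 fell, against 0.614% of all probes called. The counts in PR and FA thus lay below the shares of all probes. Without FA replicate 2 the counts were 16 and 19 in PR, 18 and 12 in FA, and 0 between FA and PR. The median difference was -0.005 in PR and -0.02 in FA, against -0.02 and -0.01 over all probes. Of the called probes, 24 of 30 in PR and 27 of 34 in FA were well above background on all arrays of both groups, and the genes named here are among these.

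Of 20 probes for receptors of the members' peptides, 3 rose and 3 fell in PR, and 3 rose and 3 fell in FA. The shares called among all probes were 30% and 34.4%. Leaving out FA replicate 2 gave 2 and 3 in PR, and 3 and 1 in FA. Mc3r, the melanocortin receptor on arcuate neurons, fell by 0.58 in PR (SE 0.096, adjusted p = 0.00149), and by 0.30 in FA (adjusted p = 0.0351). Galr1, a galanin receptor, fell by 0.46 in PR (adjusted p = 0.00979) and by 0.33 in FA (adjusted p = 0.0395), and neither call held with 75th percentile scaling. Npy5r rose by 0.43 in PR (adjusted p = 0.00307) and by 0.51 in FA (adjusted p = 0.00103). The Npy4r probe on all arrays fell by 0.36 in PR (adjusted p = 0.0472) and by 0.89 in FA (adjusted p = 0.000418). The other Npy4r probe, well above background on no CD, 1 PR and 2 FA arrays, went the other way in FA (adjusted p = 0.041), so the probes disagreed. Trhr2 rose by 0.40 in PR (adjusted p = 0.0214) and by 0.53 in FA (adjusted p = 0.00409). The calls of Npy5r in both groups and of Mc3r in PR held in all 21 refits. The Npy4r call in PR held in 7, the Galr1 call in FA in 8 and the Mc3r call in FA in 14, and each of these was lost without any of several single arrays, for Mc3r CD replicates 2 and 4 and FA replicates 2, 3 and 4. The receptors Mchr1, Hcrtr1, Npy1r and Trhr, which read Pmch, Hcrt, Npy and Trh products, were not called in any comparison.

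Of 17 probes for precursor processing enzymes, 1 rose in PR and 2 rose in FA, and none fell. Among all probes 30% and 34.4% were called. Cpe, the carboxypeptidase that trims peptides after they are cut, rose at 1 of its 3 probes, by 0.29 in PR (adjusted p = 0.009) and by 0.43 in FA (adjusted p = 0.000875). Its other probes differed from CD by -0.05 and 0.04 in PR and by 0.08 and 0.10 in FA and were not called. The convertases Pcsk1 and Pcsk2 and the amidating enzyme Pam were not called.

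Of 31 probes for leptin and melanocortin signalling, 4 rose and 3 fell in PR, and 4 rose and 7 fell in FA. Among all probes 30% and 34.4% were called. Leaving out FA replicate 2 gave 5 and 5 in PR and the same counts in FA. Stat3, the transcription factor that acts below Lepr, fell at 1 of its 2 probes, by 0.27 in PR (adjusted p = 0.00682) and by 0.43 in FA (adjusted p = 0.000415). The other Stat3 probe differed by -0.25 and -0.28 and was not called. Jak2, the kinase bound to Lepr, fell by 0.17 in PR (adjusted p = 0.0328) and by 0.23 in FA (adjusted p = 0.00699). Sh2b1, an adaptor of Jak2, rose by 0.28 in PR (adjusted p = 0.00963) and by 0.36 in FA (adjusted p = 0.00202). Adcy3, an adenylyl cyclase of neuronal cilia, rose by 0.40 in PR (adjusted p = 0.00108) and by 0.48 in FA (adjusted p = 0.000332). The calls of Stat3, Sh2b1 and Adcy3 held in all 21 refits in both groups, and that of Jak2 in PR in 14, being lost without CD replicate 1 or 2 or PR replicate 1, 3 or 4. Irs2, an adaptor of the insulin receptor, was the single called difference between FA and PR and was lower in FA by -0.41 (SE 0.078, adjusted p = 0.0488), a call that held in 5 of 21 refits and was lost without any 1 array other than FA replicate 1.

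Of 64 probes for other feeding peptides and their receptors, 7 rose and 9 fell in PR, and 7 rose and 8 fell in FA. Among all probes 30% and 34.4% were called. Leaving out FA replicate 2 gave 8 and 11 in PR, and 9 and 4 in FA, so that the balance in FA turned. Oprm1, the mu opioid receptor, fell by 0.67 in PR (adjusted p = 0.000363) and by 0.69 in FA (adjusted p = 0.00024) at the probe that was on all arrays. Nmb, neuromedin B, fell at both of its called probes, by 0.56 and 0.61 in PR and by 0.62 and 0.58 in FA. The PR calls of Nmb held in 13 and 16 of 21 refits, and both were lost without CD replicate 1 or 2 or PR replicate 3 or 4. Insr, the insulin receptor, rose at 1 of its 3 probes by 0.46 in PR (adjusted p = 0.01) and by 0.52 in FA (adjusted p = 0.00438). Penk, the enkephalin precursor, which is abundant in striatum, rose by 0.19 in PR (adjusted p = 0.0489) and by 0.18 in FA (adjusted p = 0.0497), beside the rise of the striatum markers. The Penk calls held in 7 and 5 of 21 refits and were lost with 75th percentile scaling, at adjusted p = 0.728 in PR and 0.537 in FA, while those of Oprm1 held in all 21.

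At the limits of the study's methods, at least 2-fold and an adjusted p under 0.0001, none of the member probes and none of the other feeding probes was called in any comparison. By these limits 0.0862% of all probes were called between PR and CD, 0.195% between FA and CD and 0% between FA and PR. Here the limits were applied to the adjusted p of limma, whereas the paper applied them to that of the Tukey test. The paper reported genes past these limits between PR and CD, between FA and PR and, by the titles of its gene lists, between FA and CD. The shares given here are thus not a repeat of the paper's counts. Among the 11 probes on all arrays, Agrp in FA was the farthest from CD with all mice, at 0.482 of the CD level. Without FA replicate 2 it was at 0.675, and Lepr probe 1 in FA was farther, at 0.629 of the CD and 0.59 of the PR level.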

How the data were processed

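RNA from 12 whole brains was labeled with Cy3 and hybridized by the authors to 1-colour Agilent 4x44K arrays, which were scanned and quantified with Feature Extraction 11.0.1.1 and annotated to mm9. The authors deposited the scanner's background-corrected spot intensities and a table of linear normalized intensities, made with the qspline function. Log2 of that deposited table was the main measure, and its columns had medians of 141 to 141.7. The function rewritten in R gave values within 0.00169 (log2) of the deposited ones. A probe was well above background when 50% or more of its spots carried the flag. Depth does not apply to arrays, and the number of arrays limits the precision. The methylation arrays were not analysed here.

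Samples were grouped by diet labels. One limma model (version 3.58.1, under R 4.3.3 with the data.table package, version 1.17.8) held all 3 groups, with Benjamini-Hochberg adjustment over 39429 probes. Simulated arrays were given the mean spread within the 3 diets (39429 probes). In PR against CD limma recovered 74% of 100 probes changed by 0.5 and 86% of 100 changed by 1 on the log2 scale, with 13 false calls. The changed probes were all well above background on all arrays. They were far fewer than the probes called in the data, so these rates do not give the power of the real comparisons. Relations used all 13824 permutations of mice within diets (Python 3.11.15, numpy 2.4.6, scipy 1.17.1, pandas 2.3.3), and figures used matplotlib. For a gene not above background in a whole group, the fold is a bound: the bright group's mean over the higher of the dim probe's own signal and the lowest signal among probes well above background, per array.

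Named genes were all members, called genes of the other feeding lists, the leading genes of marker lists and the 3 probes most like each member. Genes named as not called were chosen after their values were seen. The members and lists were chosen with earlier results of these data known. The alternatives were scanner intensities without outlier spots, scaling to the 75th percentile, quantile normalization, normexp with an offset of 50, a filter on dim probes, a trend and robust variance model, the replicate number as a block, fitting 2 groups, the Tukey test and the limits of the methods, and leaving out each array. Gene symbols are those of the files. Promoters are from RefSeq (GRCm38.p6).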

Additional observations from a re-analysis of the deposited data

Results flagged for a closer look

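Of 65 groups of 4 mice tested, over the member probes and the marker list means, 4 had a mouse whose gap to its neighbor exceeded Dixon's 95% critical value as a share of the group's range, where chance gives about 1 in 20. None was a member probe. The gap was 0.882 of the range for the meninges marker mean of PR replicate 4, which was lowest, and 0.886 for that of FA replicate 1, which was highest. It was 0.886 for the cerebellum marker mean of CD replicate 2, which was lowest, and 0.857 for the brainstem monoamine marker mean of PR replicate 1, which was lowest. FA replicate 2 did not pass this limit for any member.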

How the results depend on the processing

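Member probes called between PR and CD numbered 5 when only the 2 groups were fitted (Pomc, Agrp, Pmch, Trh and Gal), 1 by the Tukey test, 0 at the limits of the methods, and 1 to 5 when each array was left out, with 5 without FA replicate 2 and 1 without CD replicate 1, 2 or 3 or PR replicate 1, 2 or 4. Between FA and CD they numbered 3 with the 2 groups, 2 by Tukey, 0 at the limits of the methods and 3 to 6 when each array was left out, with 3 without CD replicate 1, CD replicate 3 or FA replicate 4. Between FA and PR the number was 1, Lepr probe 1, with dim probes removed, with the 2 groups and without CD replicate 2, and 0 to 1 over all arrays left out.

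For the other feeding genes the Tukey test called 18 probes between PR and CD and 20 between FA and CD, and the limits of the methods called 0 and 0. The 1 call between FA and PR became 0 with 75th percentile scaling, quantile normalization, the replicate block, the 2 groups, Tukey and the limits of the methods, and 0 to 1 when each array was left out. Leaving out each array gave 0 to 1 of the member pair relations and 0 to 1 of the marker relations, with 1 pair without CD replicate 4 or PR replicate 2 and 1 marker relation without PR replicate 3. The replicate block gave 2, 5 and 0 member calls, and 25, 32 and 0 calls of the other feeding genes, for PR against CD, FA against CD and FA against PR. It changed no member call. Same-numbered mice had correlations of -0.063 to 0.196 in their deviations from the group means, so the numbers were not taken to pair mice, and not every mouse matched best with its own number.

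Some small differences changed sign, none of them called under any setting in which they did. Lepr probe 3 between PR and CD was 0.0455 with 75th percentile scaling. Lepr probe 4 between FA and CD was -0.1996 with that scaling and -0.0818 with normexp, and Mc4r between PR and CD was -0.0264 with normexp. When each array was left out, the difference between FA and PR ran from -0.0461 to 0.3798 for Pomc, -0.6416 to 0.0831 for Agrp, -0.125 to 0.0108 for Npy, -0.3877 to 0.0565 for Cartpt, -0.0817 to 0.0562 for Hcrt, -0.11 to 0.1382 for Trh, -0.2165 to 0.0921 for Gal, -1.031 to 0.3213 for Lepr probe 4 and -0.1161 to 0.0566 for Mc4r. That between PR and CD ran from -0.0894 to 0.2066 for Lepr probe 1, -0.191 to 1.1614 for Lepr probe 4 and -0.0669 to 0.1058 for Mc4r. That between FA and CD ran from -0.2306 to 0.5545 for Lepr probe 4 and -0.0565 to 0.0491 for Mc4r. Apart from the changes that follow from fewer arrays, the cause was not tested. Signal over background limits Lepr probes 3 and 4, and Lepr probe 2 was dim as well.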
